A study of Mus musculus with 12 samples.

Results

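The genes of 2 ribosomes were followed in the mouse cerebellum, those encoding the proteins of the cytosolic ribosome and those encoding the proteins of the mitochondrial ribosome. Members were all rows of the deposited expression table whose names begin with Rpl, Rps or Rplp and a digit (cytosolic) or with Mrpl or Mrps and a digit (mitochondrial), without the RPS6 kinases and without rows named as pseudogenes. This gave 81 of 7667 genes, 22 cytosolic and 59 mitochondrial. The study profiled total RNA from cerebella of fxSCA7 92Q mice, which carry an Atxn7 repeat of 92 CAG and are a model of spinocerebellar ataxia type 7, and of wild-type littermates with a repeat of normal length. Both genotypes were sampled at 12 and at 29 weeks of age, which gives 4 conditions with 3 libraries each, every library being a pool of 3 mice. The sources used here give neither the promoter that drives the expanded allele nor the sex of the animals. The table holds 1 value per gene and condition, a normalized whole-number score of unstated unit, so every comparison below describes the authors' condition values without a replicate check, and no test was possible. Unless stated otherwise, the 4 scores of a gene are listed in the order wild type at 12 weeks, wild type at 29 weeks, 92Q at 12 weeks and 92Q at 29 weeks.

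Each ribosome has a small subunit, which reads the mRNA, and a large subunit, which joins the amino acids. Members were assigned to a subunit by the S or L in the gene name alone, which need not be right for every mitochondrial protein. The cytosolic ribosome translates mRNAs of nuclear genes. Most of its protein mRNAs begin with a run of pyrimidines, the terminal oligopyrimidine motif, through which mTOR signalling adjusts their translation, and their genes have left many processed pseudogenes in mammalian genomes. The mitochondrial ribosome translates the few mRNAs of the mitochondrial genome, all of them for subunits of the respiratory chain and ATP synthase, although its own proteins are encoded in the nucleus and imported. Purkinje cells, the large output neurons of the cerebellar cortex, are a main site of degeneration in spinocerebellar ataxia type 7.

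The table held a far smaller share of the cytosolic than of the mitochondrial ribosomal protein genes. Of 88 cytosolic ribosomal protein genes that RefSeq lists as protein-coding under these names, 21 had a row (23.9%) and 67 had none. Of 78 mitochondrial ones, 59 had a row (75.6%) and 19 had none, although 1 of these 19, Mrpl58, was present under its older name Ict1. The genes with no row included Rplp0, Rps18, Rps29 and Rps6, which are in common use as reference genes, and Rpl3. A further cytosolic member, Rps4l, has a symbol of this family but is annotated in GENCODE as a transcribed processed pseudogene. Rows were present only for genes with a score of 10 or more in at least 1 condition, and 80 of the 81 members had 10 or more in every condition. The exception was Rpl41, which encodes the smallest protein of the ribosome, with scores of 11, 8, 8 and 7. No member was among the 99 genes of a second, shorter deposited table.

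Genes with and without a row differed in how much of their coding sequence also occurs elsewhere in the transcriptome. Coding sequences were read in windows of 50 bases, the length of the sequencing reads, and a window was counted as shared when the same 50 bases occur in a GENCODE transcript of another locus. The 21 cytosolic genes with a row shared a median of 43.5% of their coding windows, and 9 of them shared 50% or more. The 64 cytosolic genes without a row for which the share could be computed had a median of 94.3%, and 59 of them shared 50% or more (92.2%). The mitochondrial members shared a median of 0%, with 45 of 59 sharing no window and a highest share of 44.9% in Mrpl48. The 19 mitochondrial genes without a row under these names had a median of 28.1%. They include Mrpl58, present as Ict1, with 0% shared. For scale, 1.38% of the 7258 genes of the table for which the share could be computed had 50% or more of their windows shared, against 8.84% of all 21943 protein-coding genes in GENCODE. The sources used here do not say how reads with several matches were treated, and its part in which genes have a row was not tested.

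**Figure D1:**
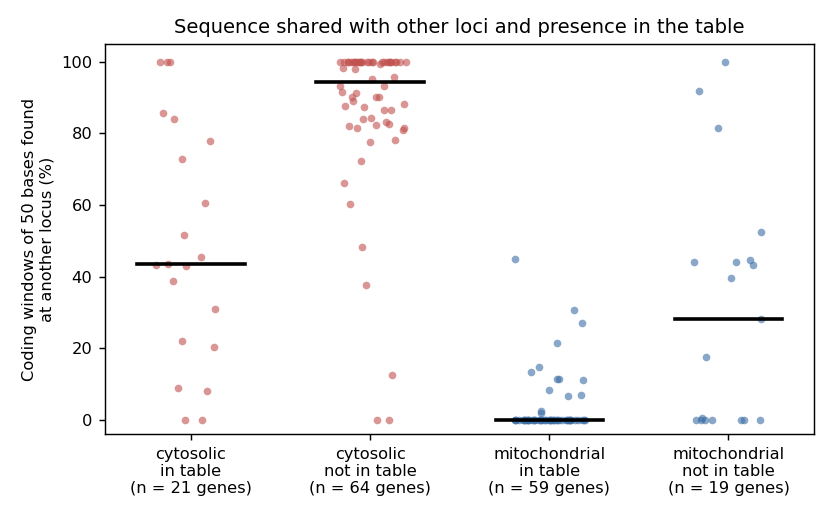
Percentage of 50-base coding windows that also occur in a transcript of another locus (y axis) for ribosomal protein genes of each family with and without a row in the deposited table (x axis). Each point is 1 gene and the bars are medians, 43.5% and 94.3% for cytosolic genes with and without a row and 0% and 28.1% for mitochondrial ones. Mrpl58, present under its older name Ict1, is drawn among the genes without a row.

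The middle 90 bases of the coding sequence are shown for members on which the results below turn, and for Rplp0 and Rps6, which had no row. Capitals mark bases that lie in a 50-base window shared with another locus, and the positions are those of the genes in GRCm38, the assembly of mm10.
Rpl8 (chr15:76904078-76906314, plus strand): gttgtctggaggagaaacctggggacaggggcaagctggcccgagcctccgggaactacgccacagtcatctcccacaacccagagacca
Rplp1 (chr9:61913284-61914542, minus strand): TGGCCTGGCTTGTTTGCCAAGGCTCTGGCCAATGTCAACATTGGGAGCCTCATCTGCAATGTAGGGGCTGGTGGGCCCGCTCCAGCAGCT
Rpl14 (chr9:120571444-120574654, plus strand): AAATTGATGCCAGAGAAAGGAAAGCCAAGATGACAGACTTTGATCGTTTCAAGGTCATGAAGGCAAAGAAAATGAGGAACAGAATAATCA
Rplp0 (chr5:115559467-115563727, plus strand): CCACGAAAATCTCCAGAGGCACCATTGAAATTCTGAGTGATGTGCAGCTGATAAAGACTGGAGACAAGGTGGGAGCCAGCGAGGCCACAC
Rps6 (chr4:86854660-86857412, minus strand): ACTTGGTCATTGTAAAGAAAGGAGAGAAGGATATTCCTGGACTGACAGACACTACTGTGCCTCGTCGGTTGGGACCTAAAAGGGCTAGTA
Mrpl20 (chr4:155802878-155809975, plus strand): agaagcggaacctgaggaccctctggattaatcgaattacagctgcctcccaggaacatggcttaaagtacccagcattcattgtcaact
Mrpl33 (chr5:31596935-31664384, plus strand): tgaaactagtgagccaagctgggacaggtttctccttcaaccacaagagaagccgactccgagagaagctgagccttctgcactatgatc
Mrpl52 (chr14:54426909-54429756, plus strand): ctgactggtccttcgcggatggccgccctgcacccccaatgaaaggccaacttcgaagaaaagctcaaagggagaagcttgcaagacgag
Mrps24 (chr11:5703983-5715680, minus strand): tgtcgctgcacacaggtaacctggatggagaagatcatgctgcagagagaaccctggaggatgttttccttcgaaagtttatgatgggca
Of the whole coding sequences, Mrpl33, Mrpl52 and Mrps24 shared no window, Mrpl20 shared 10 of 398, and Rpl8 shared 63 of 722 outside the stretch shown. Rplp1 shared 177 of 293 windows with 5 other genes, 4 of them annotated as pseudogenes. In Rplp0, 544 of 902 windows were shared with 8 other genes, 7 of them pseudogenes, and in Rps6 all 698 windows were shared with 14 pseudogenes. The 468 shared windows of Rpl14, out of 602, were all shared with a single other gene, the processed pseudogene Rpl14-ps1 (chr7:45324965-45325617). That pseudogene had a row of its own, with scores of 97, 91, 93 and 104, while Rpl14 scored 29, 25, 25 and 29. Rplp2, the partner of Rplp1 in the stalk of the large subunit, had no row, while a row named Rplp2-ps1 had 18, 15, 16 and 18. Reads of such a gene and of its copy cannot be told apart where the sequence is the same, so the scores of Rplp1, Rpl14 and the other members with large shares are uncertain in level.

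The 2 families also differed at their transcription starts. In the 30 bases centred on the RefSeq start site (GRCm38.p6), 8 of the 15 cytosolic members with a promoter entry had a run of 8 or more consecutive C or T on the sense strand (53.3%). The same was found in 7 of 52 mitochondrial members (13.5%), in 908 of 5791 genes with a row (15.7%) and in 2454 of 17492 protein-coding genes (14.03%). Examples are shown with the longest run of 8 or more in capitals, 3 from cytosolic genes with long runs, 1 from a cytosolic gene without one, and 3 mitochondrial genes of which only Mrpl9 has one.
Rpl15 (chr14:18270972-18271001, minus strand): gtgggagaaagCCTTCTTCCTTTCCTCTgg
Rpl27a (chr7:109519180-109519209, plus strand): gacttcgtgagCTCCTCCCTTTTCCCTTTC
Rpl14 (chr9:120571502-120571531, plus strand): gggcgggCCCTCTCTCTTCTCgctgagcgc
Rps15 (chr10:80292416-80292445, plus strand): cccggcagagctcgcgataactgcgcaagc
Mrpl9 (chr3:94443321-94443350, plus strand): gTCCTTCTTCCgcctgtccgctccgctgtc
Mrpl20 (chr4:155802863-155802892, plus strand): tgactttcggaagagctgtcagtgctctta
Mrpl33 (chr5:31613936-31613965, plus strand): cccgcgcatgccccggaagtagtcgttgag
The sequence CCGGAAG, a core bound by ETS factors, was searched on both strands of the 300 bases from 250 before to 50 after the start. It occurred in 5 of 15 cytosolic members (33.3%) and in 18 of 52 mitochondrial members (34.6%), against 20.4% of genes with a row and 12.9% of all protein-coding genes. These matches describe the sequence, and no binding was measured.

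At 12 weeks most members of both families had lower scores in 92Q than in wild type, by small amounts. Among cytosolic members 16 of 22 were lower, 4 were higher and 2 were equal, and the median log2 ratio was -0.11, where ratios are of scores after adding 1. Among mitochondrial members 43 of 59 were lower, 4 were higher and 12 were equal, with a median of -0.08. Over all genes the shares were 36.7% lower and 32.1% higher, and the median was 0.00. A difference of at least 1.1-fold downward was seen in 9 cytosolic and 18 mitochondrial members, against 8.02% of all genes, and upward in 2 cytosolic and no mitochondrial members, against 4.5%. A log2 ratio of -0.32 or less was reached by 3 cytosolic members and 1 mitochondrial member, against 0.705% of all genes, and one of 0.32 or more by no member, against 0.17%. No member of either family reached 1.5-fold in either direction here, against 0.0783% of all genes higher and 0.17% lower.

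Among the proteins of the cytosolic large subunit, the stalk protein gene Rplp1 had a lower score in 92Q at 12 weeks, 59 against 76 (log2 ratio -0.36). Rpl8, whose protein lies near the peptidyl transferase centre, had 197 against 214 (-0.12). Rpl14 had 25 against 29 (-0.21) and Rpl22 had 24 against 27 (-0.16). Rpl41 had 8 against 11 (-0.42), and a single unit at these scores is a large part of the difference. Rpl4, often used as a reference gene, had 91 against 92, and Rpl13a, also used as one, had 29 against 31. In the small subunit Rps15 had 102 against 112 (-0.13). Rps21 had 12 against 16 (-0.39). Members that ran the other way included Rps14 (14 against 12, log2 ratio 0.21), Rps15a (21 against 20) and Rpl15 (12 against 11).

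Among mitochondrial members at 12 weeks, Mrpl33, a small protein of the large subunit, had the lowest ratio, with 17 in 92Q against 22 in wild type (-0.35). Mrps24 of the small subunit had 19 against 23 (-0.26), Mrpl30 had 10 against 12 (-0.24) and Mrpl52 had 27 against 32 (-0.24). Mrpl20 had 56 against 65 (-0.21). The 4 higher members differed by 1 or 2 units: Mrpl10, part of the stalk, had 35 against 33, Mrpl16 had 21 against 20, Mrps2 had 29 against 28, and Mrpl3 had 29 against 28. With subunits assigned by name, the medians were -0.07 for the 37 mitochondrial members named as large-subunit and -0.09 for the 22 named as small-subunit. For the 10 and 12 cytosolic ones they were -0.14 and -0.09, and the 12 include Rps19bp1, whose protein is no subunit.

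At 29 weeks the direction was the opposite, and most members had higher scores in 92Q. Among cytosolic members 17 of 22 were higher, 3 were lower and 2 were equal (median log2 ratio 0.11), and among mitochondrial members 37 of 59 were higher, 4 were lower and 18 were equal (median 0.05). Over all genes 49.5% were higher and 26.1% were lower, again with a median of 0.00. At least 1.1-fold higher were 7 cytosolic and 7 mitochondrial members, against 15% of all genes, so the mitochondrial share was below that of the table as a whole. At least 1.1-fold lower were 3 cytosolic members and no mitochondrial one, against 8.47%. Beyond 0.32 on the log2 scale, 2 cytosolic members were higher, against 2.01% of all genes, and none of either family was lower, against 2.24%. No member reached 1.5-fold, against 0.535% of all genes higher and 0.73% lower. Of the 13 cytosolic members with a mean score of 20 or more, all 13 were higher in 92Q at this age, against 52.0% of the 4260 genes of the table with such a mean.

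The largest cytosolic ratios at 29 weeks were those of Rps4l (15 in 92Q against 11 in wild type, 0.42), Rplp1 (67 against 53, 0.33) and Rpl14 (29 against 25, 0.21). Among members that shared few coding windows, Rpl8 had 220 against 196 (0.17) and Rps3 had 74 against 71 (0.06), and the reference gene Rpl4, with 20.3% shared, had 95 against 91 (0.06). The 12 cytosolic members that shared under 50% of their coding windows had a median of 0.06, of which 9 were higher and 2 lower, and the 9 that shared more had a median of 0.13, of which 7 were higher and 1 lower. At 12 weeks these medians were -0.11 and -0.08. Rps21 (12 against 14), Rpl41 (7 against 8) and Rps19bp1 (14 against 16) were lower in 92Q at both ages. Rps19bp1 is in the set by its name only, since its protein binds the ribosomal protein RPS19 and is no subunit. Rps14, Rps15a and Rpl15 were among those higher in 92Q at both ages, with 16 against 14, 23 against 21 and 12 against 11 at 29 weeks.

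Mitochondrial members at 29 weeks were led by Mrpl52 (31 in 92Q against 25 in wild type, 0.30), Mrps24 (21 against 18, 0.21), Mrpl33 (21 against 18, 0.21) and Mrps6 (29 against 25, 0.21). Each of these 4 had been lower in 92Q at 12 weeks. The 4 members that were lower at 29 weeks were Mrpl30 (10 against 11), Mrps35 (14 against 15), Mrps21 (19 against 20) and Mrpl36 (26 against 27), each by a single unit.

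**Figure D2:**
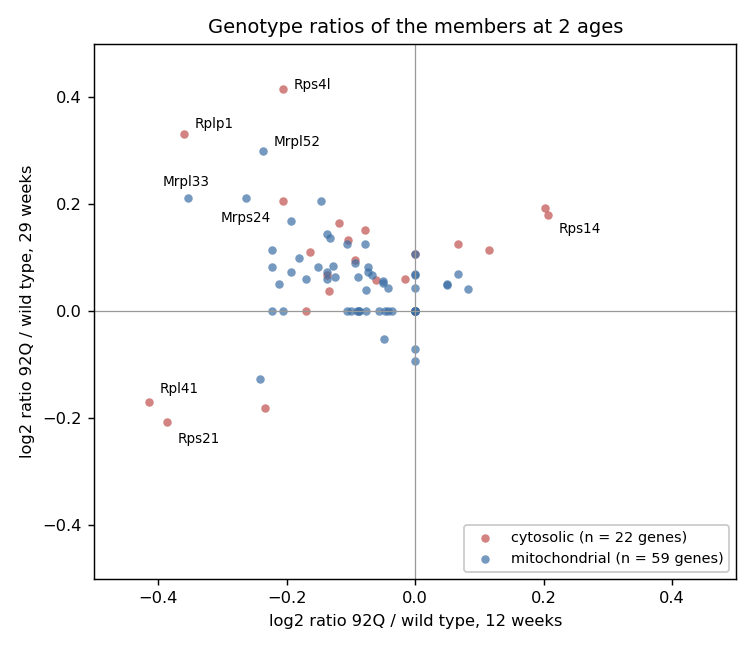
Log2 ratio of the 92Q to the wild-type score at 12 weeks (x axis) and at 29 weeks (y axis) for each of the 22 cytosolic (red) and 59 mitochondrial (blue) members, 1 point per gene, with points at the same values drawn over each other. The upper left region, lower at 12 and higher at 29 weeks, holds 12 cytosolic and 29 mitochondrial genes, with Rplp1, Rps4l, Mrpl33 and Mrpl52 farthest out.

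The change of sign was also counted gene by gene. A score lower in 92Q at 12 weeks and higher at 29 weeks was found in 12 of 22 cytosolic members and in 29 of 59 mitochondrial members, against 17.5% of all genes. Median-of-ratios scaling put the mitochondrial genotype median at 29 weeks at 0.0256, with all genes at -0.0251. Upper quartile scaling put the mitochondrial genotype median at 12 weeks at -0.0442, with all genes at 0.0324. The genotype log2 ratio at 29 weeks exceeded that at 12 weeks in 18 of 22 cytosolic members (median difference 0.18) and in 48 of 59 mitochondrial members (median difference 0.11), against 50.9% of all genes, and was smaller in 2 and 4, against 36%. Among other genes with a coding sequence under 900 bases, taken up below, the ratio at 29 weeks was the larger in 69.3% (median difference 0.09). The 12-week and 29-week genotype comparisons use different columns. Each is also made of columns that enter the age comparisons below, so the age and genotype results are 2 descriptions of the same 4 values.

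With age, the scores in wild type were lower at 29 than at 12 weeks for most members. In wild type 17 of 22 cytosolic members were lower and 3 higher (median log2 ratio -0.11), and 51 of 59 mitochondrial members were lower, 8 equal and none higher (median -0.13). The shares over all genes were 45.9% lower and 32.5% higher, and their median was 0.00. Scaling to equal column sums brought the medians to -0.0573 for the cytosolic and -0.0845 for the mitochondrial members. The same scaling moved the median of all genes from 0.00 to 0.0449. At least 1.1-fold lower were 10 cytosolic and 28 mitochondrial members, against 17.1% of all genes. Lower by 0.32 or more on the log2 scale were 3 cytosolic and 5 mitochondrial members, against 1.68%. Only 1 member of the 2 families, Rps14, was at least 1.1-fold higher, against 10.6% of all genes, and none was higher by 0.32, against 1.12%. Again no member reached 1.5-fold, against 0.222% of all genes higher and 0.144% lower. The 22 mitochondrial members named as small-subunit had a median of -0.18 and the 37 named as large-subunit one of -0.13.

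The mitochondrial members lower by 0.32 or more on the log2 scale with age in wild type were Mrpl42 (23 at 29 weeks against 31 at 12 weeks, -0.42), Mrps18c (10 against 13, -0.35), Mrpl52 (25 against 32, -0.34), Mrps24 (18 against 23, -0.34) and Mrps26 (18 against 23, -0.34). Smaller ratios at higher scores, where rounding matters less, included Mrpl20 with 54 against 65 (-0.26), Mrps12, whose protein is part of the decoding site, with 49 against 58 (-0.24), and Mrpl34 with 46 against 54 (-0.23). Mrps18a, 1 of the 3 mammalian copies of the S18 protein, had 43 against 49 (-0.18). Its sister Mrps18b had no row. Mrpl54 had 37 in all 4 conditions, Mrps27 had 16 and Mrpl48 had 13. Of the cytosolic members Rplp1 (53 against 76, -0.51), Rpl41 and Rps4l (11 against 14, -0.32) were lower by 0.32 or more.

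In 92Q the 2 families parted. From 12 to 29 weeks 15 of 22 cytosolic members were higher, 3 lower and 4 equal (median 0.11), while 14 of 59 mitochondrial members were higher, 27 lower and 18 equal (median 0.00). Over all genes 42.4% were higher and 35.4% were lower. At least 1.1-fold higher were 8 cytosolic and 4 mitochondrial members, against 15.2% of all genes, and at least 1.1-fold lower were 3 and 1, against 11.9%. No member of either family passed 0.32 on the log2 scale, against 3.6% of all genes higher and 2.47% lower, or 1.5-fold, against 0.978% and 0.483%. The difference between the family medians, mitochondrial minus cytosolic, was -0.11 here, against -0.03 for age in wild type, 0.03 for genotype at 12 weeks and -0.06 for genotype at 29 weeks. Among members that shared under 50% of their coding windows the last of these was -0.0122. All 13 cytosolic members with a mean score of 20 or more were higher at 29 weeks in 92Q, against 41.1% of genes with such a mean, among them Rpl8 (220 against 197), Rps15 (113 against 102), Rps20 (59 against 53) and Rps9 (44 against 39). Of the mitochondrial members, Mrpl33 (21 against 17), Mrpl52 (31 against 27) and Mrps23 (32 against 29) had the largest ratios, and Mrps21 (19 against 22) the smallest. A score that was lower with age in wild type and higher with age in 92Q was found in 12 of 22 cytosolic and in 12 of 59 mitochondrial members, against 12.4% of all genes.

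Summed over members, the cytosolic scores were 1157 and 1071 in wild type and 1065 and 1156 in 92Q at 12 and 29 weeks. The cytosolic sum was thus nearly the same in young wild-type and older 92Q cerebella and about as low in the other pair of conditions. The mitochondrial sums were 1586 and 1419 in wild type and 1489 and 1478 in 92Q, highest in young wild type and lowest in older wild type, with the 92Q values between them. The counts that follow leave out members with the same score in all 4 conditions, 1 cytosolic and 3 mitochondrial, as they do 351 of all genes, which stay in the totals. By gene, wild type at 12 weeks was the highest condition or tied for it in 50 of 59 mitochondrial members, against 38.8% of all genes. Wild type at 29 weeks was the lowest or tied in 48 of 59, against 42.7%. Among the 22 cytosolic members the highest or tied condition was 92Q at 29 weeks in 12 and wild type at 12 weeks in 10, against 45.1% and 38.8% of all genes, and wild type at 29 weeks in none, against 22.3%. The lowest or tied condition was wild type at 29 weeks in 11 and 92Q at 12 weeks in 10, against 42.7% and 28.2%.

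**Figure D3:**
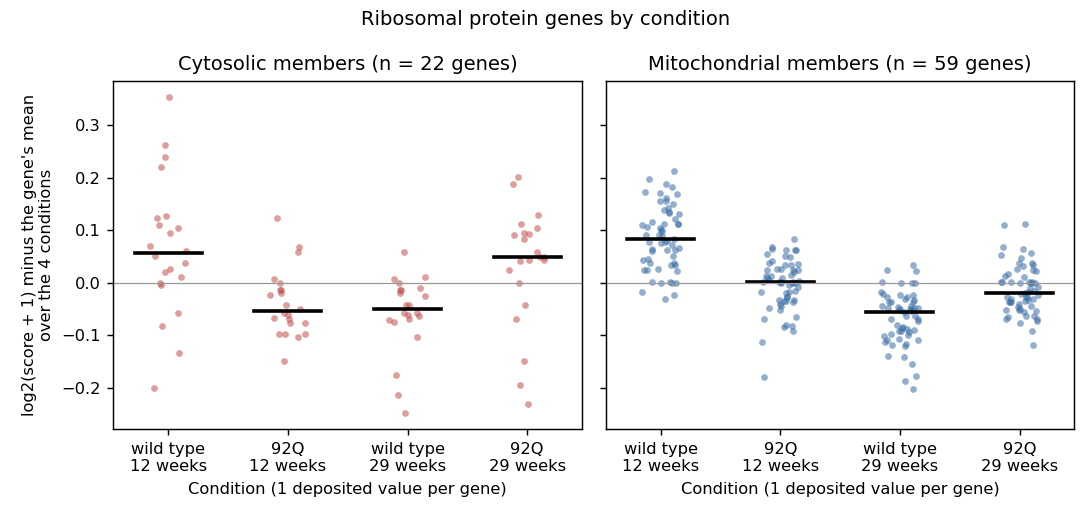
Log2 of the score plus 1 after subtracting the gene's own mean over the 4 conditions (y axis) for cytosolic (left) and mitochondrial (right) members in each condition (x axis). Each point is 1 gene and the bars are medians, given in the order of the axis, which is wild type and 92Q at 12 weeks, then wild type and 92Q at 29 weeks: 0.06, -0.05, -0.05 and 0.05 for the cytosolic genes and 0.08, 0.00, -0.06 and -0.02 for the mitochondrial ones.

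Subunit genes that the name rule does not reach had similar values. Gnb2l1, which encodes the cytosolic small-subunit protein RACK1, scored 129, 116, 117 and 130. Of 6 further proteins of the mitochondrial ribosome all 6 had a row, among them the large-subunit peptidyl-tRNA hydrolase Ict1 (63, 55, 56 and 56) and the small-subunit proteins Aurkaip1 (62, 53, 57 and 58), Dap3 (11, 10, 10 and 11) and Ptcd3 (15, 14, 14 and 15). In 92Q at 12 weeks all 6 stood below wild type (median -0.12), against 36.7% of all genes. At 29 weeks 5 stood above and 1 below (0.08), against 49.5% and 26.1%. The differences of Dap3 and Ptcd3 were of 1 unit. With age all 6 were lower in wild type (-0.14), against 45.9% of all genes, while in 92Q the age median of the 6 was 0.01. Rn45s, the precursor of the ribosomal RNAs, is a noncoding transcript and scored 283, 127, 159 and 124.

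The members were short genes, and in 3 of the 4 comparisons the other short genes of the table had medians of the same sign. The median coding length was 453 bases for the cytosolic and 588 bases for the mitochondrial members, against 1365 bases for the 7259 genes of the table with a coding sequence. The 488 other genes with a coding length under 450 bases had medians of -0.06 for genotype at 12 weeks, 0.06 for genotype at 29 weeks, -0.13 for age in wild type and 0.00 for age in 92Q. The 990 genes of 3000 bases or more that could be compared at 12 weeks had 0.04 there, and such long genes had 0.00 for genotype at 29 weeks, 0.07 for age in wild type and 0.02 for age in 92Q. In the under-450 class the 17 mitochondrial members had -0.13, 0.05, -0.21 and -0.03 in these 4 comparisons and the 10 cytosolic members had -0.17, 0.07, -0.18 and 0.06. From 450 to under 600 bases the 459 other genes had -0.04, 0.06, -0.08 and 0.00, and the 13 mitochondrial members -0.10, 0.06, -0.18 and 0.00. The 3 cytosolic members of that class ran the other way for genotype at 12 weeks (0.20) and for age in wild type (0.07), and had 0.18 for genotype at 29 weeks and 0.17 for age in 92Q. From 600 to under 900 bases the other genes had -0.01, 0.04, -0.06 and 0.00, the 16 mitochondrial members -0.02, 0.06, -0.11 and -0.04 and the 7 cytosolic members -0.09, 0.10, -0.09 and 0.10. In wild type 1264 of the 1924 other genes under 900 bases were lower at 29 weeks (65.7%), against 41 of 46 mitochondrial and 15 of 20 cytosolic members of that length. In 92Q the other genes under 900 bases had an age median of 0.00 with 43.0% higher, against 13 of 20 cytosolic and 10 of 46 mitochondrial members. The part of gene length in the results was not tested beyond these classes.

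**Figure D4:**
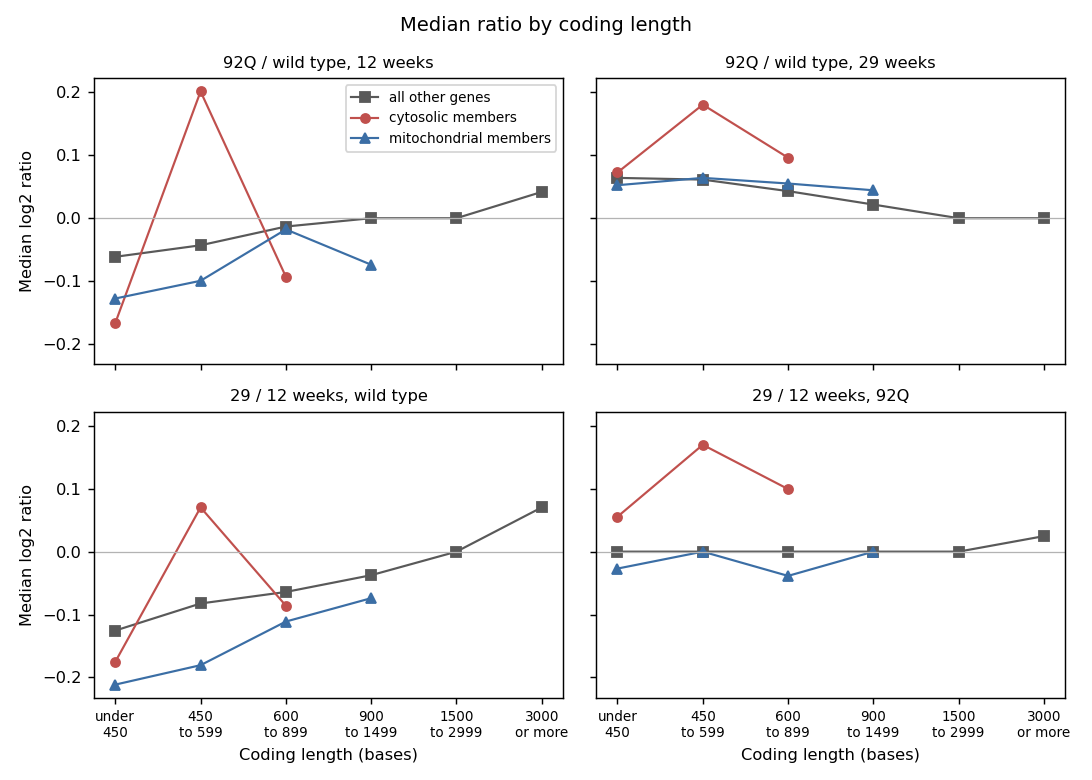
Median log2 ratio (y axis) by class of coding length (x axis) in the 2 genotype comparisons (top) and the 2 age comparisons (bottom), for all genes that are no members (grey), cytosolic members (red; 10, 3 and 7 genes from left to right) and mitochondrial members (blue; 17, 13, 16 and 13 genes). The class of 1 cytosolic gene from 900 bases on is not drawn, and the other genes run from -0.06 to 0.04 at 12 weeks and from -0.13 to 0.07 for age in wild type.

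Other genes of protein synthesis were taken from lists by role. Of 41 listed initiation factors 33 had a row, and at 12 weeks the 92Q score was below wild type in 24 of these and above it in 5 (median -0.04), at 29 weeks it was above in 15 and below in 6 (0.00), and with age in wild type 22 were lower and 6 higher (-0.06). Over all genes 36.7% were below at 12 weeks, 49.5% above at 29 weeks and 45.9% lower with age in wild type, so the share of initiation factors above wild type at 29 weeks was no larger than that of the table. The poly(A)-binding protein gene Pabpc1 scored 28, 30, 29 and 34 and the initiation factor genes Eif3f and Eif4b scored 109, 106, 107 and 117 and 45, 48, 44 and 53, each highest in 92Q at 29 weeks. Of 12 elongation and release factors with a row 3 were higher and 5 lower at 12 weeks, against 32.1% and 36.7% of all genes. At 29 weeks 6 were higher and 2 lower, against 49.5% and 26.1%, so the share higher was near that of the table. Eef1a1, which carries aminoacyl-tRNA to the ribosome, was at 26, 26, 25 and 31. Its higher-scoring paralog Eef1a2 was at 626, 577, 642 and 596, with genotype log2 ratios of 0.04 and 0.05 at 12 and 29 weeks. Ribosome assembly factors (38 of 83 with a row) had medians of -0.05, 0.00, -0.06 and 0.00 in the order genotype at 12 weeks, genotype at 29 weeks, age in wild type and age in 92Q. In the first of these 21 were lower and 5 higher, against 36.7% and 32.1% of all genes. Cytosolic aminoacyl-tRNA synthetases, which charge tRNAs with amino acids, were higher in 92Q at 29 weeks in 13 of 19 and lower in none, against 49.5% and 26.1% of all genes, such as Dars at 22 against 19. They were lower with age in wild type in 16 of 19, against 45.9%. Factors of mitochondrial translation and ribosome assembly (25 of 43 with a row) had medians of 0.00, 0.00, -0.07 and 0.00. With age in wild type 15 were lower and 1 higher, against 45.9% and 32.5% of all genes. Genes of the mTOR pathway and the RPS6 kinases (16 of 20 with a row) had medians of 0.05, 0.00, 0.03 and 0.00. In 92Q at 12 weeks 9 were higher and 3 lower, against 32.1% and 36.7% of all genes. Rheb, the activator of mTOR complex 1, scored 61, 57, 56 and 51.

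Markers of several cell types and tissues also differed between these conditions. All 18 Purkinje cell and all 17 granule neuron markers of the lists had a row. Summed Purkinje cell marker scores were 6865, 5767, 5362 and 3609, and summed granule neuron marker scores were 3703, 3323, 3805 and 3039. Choroid plexus marker sums, from 9 of 13 markers, were 487, 609, 85 and 1781, with transthyretin (Ttr) at 336, 445, 6 and 1403, and Kl and Sostdc1 were listed at 0 in 92Q at 12 weeks. Myelin and oligodendrocyte marker sums, from all 14 markers, were 4138, 4147, 3877 and 4428, and astrocyte and Bergmann glia sums, from all 14, were 4365, 4211, 4068 and 4546. Median log2 ratios follow in the order genotype at 12 weeks, genotype at 29 weeks, age in wild type and age in 92Q. The cytosolic members had -0.11, 0.11, -0.11 and 0.11 and the mitochondrial members -0.08, 0.05, -0.13 and 0.00. Purkinje cell markers had -0.26, -0.62, -0.19 and -0.56, and granule neuron markers 0.07, -0.10, -0.07 and -0.24. Myelin and oligodendrocyte markers had -0.13, 0.14, -0.10 and 0.20, and astrocyte and Bergmann glia markers -0.04, 0.04, 0.01 and 0.11. Microglia markers had 0.00, 0.98, 0.19 and 1.22. With age in wild type 9 of the 14 myelin markers were lower and 4 higher, although Mbp rose from 2614 to 2723. Of the choroid plexus markers 6 of 7 with a ratio were lower in 92Q at 12 weeks (median -1.02), and all 9 were higher in 92Q at 29 weeks. Of these rows 1500015O10Rik, Clic6, Kcnj13, Kl and Sostdc1 reached 10, the score that gave a gene a row, only in 92Q at 29 weeks. For them a higher score in that condition was fixed by having a row. The same holds for the microglia markers Cd68, Lyz2 and Trem2. At 29 weeks 8 astrocyte and Bergmann glia markers were higher and 6 lower in 92Q (median 0.04), and Apoe among them scored 1105, 1062, 1094 and 1552. Microglia marker sums, over 14 rows, were 209, 238, 209 and 484. These rows include Stra13 (27, 24, 24 and 26), which is none of the 17 listed markers. Of the 7 blood markers 1, Hbb-b2, had a row, at 16, 15, 16 and 22. The transcript Xist, made from the inactive X chromosome of females, scored 66, 63, 30 and 25. The Y-linked genes Ddx3y and Eif2s3y were listed at 0, 5, 9 and 11 and at 0, 6, 12 and 15. Xist thus differed with genotype, and the Y-linked genes with genotype and with age in wild type. A difference in sex makeup of the pools along these comparisons could not be told apart from genotype or age. In bulk tissue fewer cells of a type and less RNA per cell cannot be told apart. The part of cell makeup, choroid plexus carry-over and sex in the ribosomal protein results was not tested.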

How the data were processed

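Total RNA was isolated from cerebellum with TRIzol and RNeasy columns, and TruSeq libraries were sequenced as single-end reads of 50 bases, per the labels' protocols. Bowtie 0.12.7, SAMtools 0.1.12a and Cuffdiff 1.3.0 are the tools, and mm10 the build, per the submitters' processing notes, without a role for each. The values deposited by the authors are a normalized score, rounded to whole numbers, with 1 value per gene and condition. The sources used here do not state their normalization, whether they are per gene length, or the treatment of reads with several matches. All 4 columns had a median of 22, and their sums ran from 322446 to 333581. The read depth of the 12 libraries is unknown, and no counting interval could be given. Rounding leaves a log2 ratio uncertain by 0.13 at a score of 10 and by 0.06 at 22, but cannot turn its direction.

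Of 7684 rows 17 had a number in place of a gene name and were left out. For each comparison log2 ratios of score plus 1 were computed for genes with 5 or more in one or both conditions, on a scale that understates the change of low genes, and counted at any difference at 1.1-fold and 1.5-fold, and at 0.32 on the log2 scale. With 1 value per condition no test, standard error or p-value was computed, in place of the fits that replicate values would allow. Members are described by counts and medians beside those of all genes. The members, the gene lists and the thresholds were chosen with earlier results of these data known. The measures of shared sequence, coding length and promoters and their cut-offs were likewise chosen after the data were seen. Coding sequences, gene positions and lengths came from GENCODE M21 and promoters from RefSeq. All 81 members matched GENCODE, and 15 cytosolic and 52 mitochondrial members had a RefSeq promoter. Named members are, per family and comparison, the 3 largest and 3 smallest ratios, those past 0.32 on the log2 scale, the highest and lowest mean scores, common reference genes, paralogs and members that are no subunit, and of other lists up to 4 genes with the largest ratios at 29 weeks. Any other named gene was picked with its values in view. The ratio step was tested on simulated data. Some members that this rule picks are counted but not reported by name here. Alternatives were other pseudocounts, minimum values, scalings, rounding limits and member sets. Python 3.11.15 with numpy 2.4.6, pandas 2.3.3 and matplotlib 3.10.9 was used.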

Additional observations from a re-analysis of the deposited data

Results flagged for a closer look

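In 2 family medians the direction of the genotype difference was opposite at the 2 ages. The cytosolic median log2 ratio of 92Q to wild type was -0.11 at 12 weeks and 0.11 at 29 weeks, a difference of 0.22. The mitochondrial median was -0.08 and 0.05, a difference of 0.13. The cytosolic median for age was -0.11 in wild type and 0.11 in 92Q, a difference of 0.21, and it is made of the same 4 columns as the genotype difference. None of these differences was tested, since each condition has 1 value.

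For 9 single members the genotype ratios ran opposite ways at the 2 ages by at least 1.1-fold each, which is 11.1% of the 81 members, against 2.2% of all genes. The ratio at 29 weeks exceeded that at 12 weeks by 0.69 on the log2 scale for Rplp1, by 0.62 for Rps4l, by 0.57 for Mrpl33, by 0.54 for Mrpl52, by 0.47 for Mrps24, by 0.41 for Rpl14, by 0.36 for Mrpl42, by 0.35 for Mrps6 and by 0.28 for Mrpl55. These differences were not tested. Rplp1 and Rpl14 share 60.4% and 77.7% of their coding windows with other loci, and Rps4l is annotated as a pseudogene.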

How the results depend on the processing

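Medians of the cytosolic members, of the mitochondrial members and of their difference were recomputed for the 4 comparisons and for the change of the genotype ratio between ages under 15 alternatives, which gives 225 values. Of these, 203 stayed within 0.05 of the value reported, 21 moved further with the same sign or to or from 0, and 1 moved further and changed sign. The tolerance of 0.05 is as large as some medians. Among the 203, 27 differed by over 1.5 times, and 2 of these also changed sign: the family difference for genotype at 12 weeks was -0.0089 with a minimum mean of 50, in place of 0.03, and that for age in wild type was 0.0054 with numerators rounded up, in place of -0.03. Pseudocounts of 0.1 and 5, no minimum, upper quartile, median-of-ratios and equal-sum scaling, other member sets, members under 50% shared windows and coding lengths under 900 bases moved none by more than 0.05. They still lowered the cytosolic median for genotype at 29 weeks to 0.0647 under 50% shared windows and the mitochondrial change between ages to 0.0645 with equal sums. With equal sums the all-gene median of that change went from 0.0040 to -0.0396. The last 2 alternatives named, on shared windows and coding length, were chosen after the data were seen. A coding length under 900 bases keeps 20 of 22 cytosolic and 46 of 59 mitochondrial members, so their medians had little room to move. The all-gene medians under it went from 0.00 to -0.0380 for genotype at 12 weeks, 0.0544 at 29 weeks and -0.0862 for age in wild type. For the change between ages the all-gene median went from 0.0040 to 0.0911. A minimum mean of 20 gave -0.16 for the family difference with age in 92Q. A minimum mean of 50, which keeps 3 mitochondrial members, gave -0.24 for the mitochondrial age median in wild type, 0.21 for the mitochondrial change between ages, and -0.16 and -0.17 for the family differences with age in wild type and 92Q. It gave 0.0063 in place of -0.07 for the family difference in the change between ages, and the cause was not tested. Quantile normalization gave -0.0431 for the cytosolic age median in wild type and 0.12 for the cytosolic change between ages. The all-gene medians were then 0.0044 and -0.0251.

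Rounding limits shift every gene the same way, all genes included, and so bound the medians from outside. With numerators raised and denominators lowered by 0.5, the cytosolic medians were 0.17 for genotype at 29 weeks and 0.28 for the change between ages. The mitochondrial ones were 0.00 at 12 weeks, 0.11 at 29 weeks, -0.0770 for age in wild type and 0.26 for the change. With the opposite shift the cytosolic medians were 0.0518 at 29 weeks and 0.0628 for the change. The mitochondrial ones were then -0.13 at 12 weeks, 0.00 at 29 weeks, -0.21 and -0.0813 for age in wild type and 92Q and 0.00 for the change, and the family difference with age in wild type was -0.0874. No paired analysis was possible because each condition has a single deposited value, and leaving out each replicate could not be run for the same reason. The spread between libraries is unknown, so none of the small differences in the text can be set against it.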
